A study of Homo sapiens with 9 samples.

Results

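The genes described here encode the protein components of the cytosolic ribosome, named RPL for the large subunit and RPS for the small subunit. They were taken as all protein-coding genes whose symbol follows the RPL, RPLP or RPS pattern, without the RPS6K kinases and without RPSA. This gave 83 of the 60675 gene rows in the table, 52 of the large and 31 of the small subunit. RNA sequencing was carried out on MM.1S, an established human multiple myeloma line grown in RPMI medium with serum. Cultures were exposed for 24 h to 40 µM or 80 µM of EGCG, a polyphenol of green tea whose full name is epigallocatechin gallate, or to none of it (0 µM, the control). Each dose had 3 libraries, and all 9 libraries came from this 1 line with no genetic change stated. The purpose stated for the series was to study how EGCG acts on these cells while it promotes their apoptosis. The labels do not say whether the replicates were separate cultures, so p-values measure only the spread between these libraries.

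Each cytosolic ribosome holds 1 copy of nearly every ribosomal protein, and its genes are among the most strongly expressed in growing cells. Most of their messenger RNAs begin with a C followed by an unbroken run of C and T bases, the 5′ terminal oligopyrimidine (TOP) tract. Through this tract the kinase mTORC1 and the protein LARP1 govern how well the messengers are translated, a control that messenger levels do not report. Plasma cells and myeloma cells make large amounts of secreted protein and depend on ribosomes to do so. Several ribosomal proteins also have paralogues, second genes with a closely related product, and very many processed pseudogenes, copies of the messenger inserted elsewhere in the genome.

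The starts of genes in the paralogue pairs are shown to compare their TOP tracts, which set RPS27 apart from RPS27L and RPL26 from RPL26L1. Each line gives 10 bases before the annotated start and 20 from it, 5′ to 3′ on the gene's strand. Capitals mark the start base and any C/T run that begins there. They come from RefSeq promoters on GRCh38.p14.
RPS27, chr1:153990752-153990781, plus strand: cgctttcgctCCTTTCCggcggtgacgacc
RPS27L, chr15:63157458-63157487, minus strand: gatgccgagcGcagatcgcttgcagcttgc
RPL26, chr17:8383174-8383203, minus strand: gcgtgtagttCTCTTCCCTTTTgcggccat
RPL26L1, chr5:172958719-172958748, plus strand: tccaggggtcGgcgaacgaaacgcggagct
RPL22, chr1:6199576-6199605, minus strand: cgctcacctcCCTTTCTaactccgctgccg
RPL22L1, chr3:170870176-170870205, minus strand: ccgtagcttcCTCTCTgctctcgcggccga
RPL39, chrX:119791611-119791640, minus strand: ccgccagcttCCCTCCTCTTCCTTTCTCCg
The main genes RPS27, RPL26, RPL22 and RPL39 began with a tract, and so did the paralogue RPL22L1. The paralogues RPS27L and RPL26L1 did not begin with one, at any start in the table. A tract was scored as a start base C followed by at least 4 bases that are each C or T, read on the gene's strand only. Of the 83 members, 66 were in the promoter table, and 46 of these (69.7%) had a tract at 1 start or more, against 5.14% of all symbols in the table. The median log2 fold change at 80 µM against control was -0.05 for the 45 tested members with a tract and 0.03 for the 19 without. The score depends on the annotated start base. RPL19, with a start inside a C/T run, was scored as without a tract, so these medians need not separate TOP messengers from others.

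Library totals ran from 12674490 to 16427343 counts. The 10 plasma cell and myeloma markers (SDC1, TNFRSF17, IRF4 and others) summed to 6905 to 7013 CPM (counts relative to the TMM-scaled library total) in control, 6469 to 6630 at 40 µM and 6048 to 6358 at 80 µM. Markers of mature B cells summed to at most 23.1 CPM, of T and NK cells to at most 5.58, of monocytes and macrophages to at most 16.0 and of stromal cells to at most 0.92, with CD22, CD3D, NKG7, COL1A2 and LUM at 0 in every library. The myeloma marker sum was lower at each higher dose, and its part in the results below was not tested. In these bulk libraries, fewer cells of a kind and less RNA per cell cannot be told apart.

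As a group, the cytosolic ribosomal proteins took a share of the counts that differed between doses by less than the spread between replicates. The mean share was 4.32 ± 0.29% without EGCG, 4.26 ± 0.34% with 40 µM and 4.29 ± 0.23% with 80 µM (SD, n = 3 libraries). By library the share was 4.31, 4.04 and 4.61% in control, 4.44, 4.47 and 3.87% at 40 µM, with 4.41, 4.03 and 4.43% at 80 µM. The 3 groups overlapped, and the means lay closer together than the libraries of any 1 group. Large subunit members held 1.53 ± 0.02 times the counts of small subunit members without EGCG, 1.49 ± 0.15 times with 40 µM and 1.55 ± 0.07 times with 80 µM. The wider spread at 40 µM came with replicate 2, where the ratio was 1.32, against 1.55 and 1.61 in the other libraries of that dose. These shares are of each library's counts, so they do not report the amount of ribosomal protein messenger per cell.

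**Figure D1:**
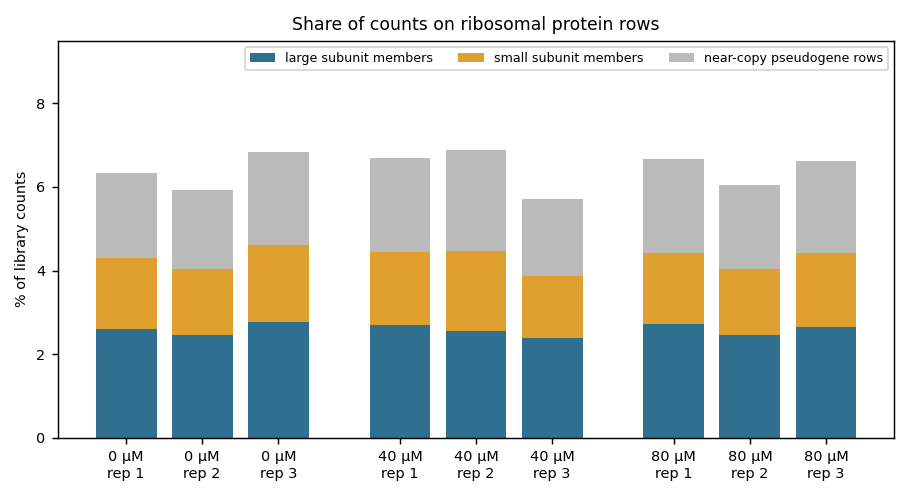
Share of each library's counts, in percent, on large subunit members, small subunit members and the pseudogene rows that are near-copies of them, for 3 libraries at each EGCG dose. The stacked bars start at 0 and reach 5.72 to 6.88% with no order by dose.

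Of the 83 members, 80 had enough counts to be tested, 50 of the large and 30 of the small subunit. RPL3L, the striated muscle form of RPL3, had 12 counts over the 9 libraries, and RPL10L, a form of RPL10 made mainly in testis, had 1. RPS9 had 28 counts in all, a case taken up with the pseudogenes. In control, the tested members ran from 2.79 to 1429 FPKM (counts scaled to gene length and library total), with a median of 68.5. The highest were RPS12 (1429 ± 130 FPKM, n = 3), the stalk protein RPLP1 (494 ± 19.1), RPS4X (362 ± 28.8), RPL35 (319 ± 24.9) and RPLP2 (290.3 ± 20.9). The lowest tested were RPS25 (2.79 ± 0.08), RPL9 (3.16 ± 0.33), RPL21 (3.65 ± 0.18), RPS27L (4.38 ± 0.43) and RPL7A (6.43 ± 0.55).

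These levels depend on the gene length the authors divided by. The length implied by each count and FPKM was longer than the gene's exons laid together in GENCODE 29 for 81 of 83 members, by a median of 1.72 times and by up to 8.18 times. Scaled to those exon lengths, RPS12 was again first (1416 ± 169 CPM per kilobase, SD, n = 3), and RPL8 moved from rank 18 by FPKM to rank 8. RPS25, RPL9, RPL21 and RPS27L stayed at ranks 77 to 80. Comparisons of 1 gene between doses do not involve the length.

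At 40 µM against control, none of the 80 members was called in either direction by edgeR's quasi-likelihood test (Benjamini-Hochberg adjusted p under 0.05 over 15982 genes). Of all genes tested, 1.49% were called higher and 0.813% lower, so a set of this size would hold few calls at that rate. At an unadjusted p under 0.05, 4 members were higher and 2 lower, and DESeq2 called 0. The largest positive values were those of RPL15 (log2 fold change 0.66), RPS3A (0.57) and RPL39 (0.56), and the largest negative ones those of RPS2 (-0.63), RPL32 (-0.41) and RPL29 (-0.38). Without 40 µM replicate 2, RPS3A was at 0.06, RPL39 at 0.17 and RPL29 at -0.18, and with pseudogene copies added RPL39 was at 0.14 and RPS2 at -0.26. The 3 control and 3 treated libraries did not overlap for RPL39, RPL9 and RPLP0, higher at 40 µM, or for RPL32, RPL5 and RPS2, lower. Each direction is 3.75% of members, against 12.9% of all genes higher and 11.5% lower.

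At 80 µM against control, where 17.4% of all genes were called higher and 17.5% lower, 3 ribosomal protein genes were called. RPS27L rose, and RPL22L1 and RPL26L1 fell. All 3 are paralogues of a main ribosomal protein gene, and each had a control mean under 52 CPM. The paralogue RPL39L (34.1 CPM) and main genes such as RPL21 (13.4 CPM) and RPL39 (46.4 CPM) were also under 52 CPM and not called. No main gene was called in this fit, while some passed in alternative analyses given below. The calls of this fit are 1.25% and 2.5% of members. Libraries did not overlap for 4 members on the higher side (5% of members, against 24.6% of all genes) and for 9 on the lower side (11.2%, against 25.3%). At an unadjusted p under 0.05, 4 members were higher and 5 lower.

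RPS27L encodes a small-subunit paralogue of RPS27. It lies on chromosome 15 from 63125872 to 63158021 on the minus strand (GRCh38). RPS27L stood at 49.5, 45.6 and 60.1 CPM in control, 63.6, 76.2 and 54.5 at 40 µM, with 75.3, 82.9 and 82.5 at 80 µM. Every library at 80 µM lay above every control library, while those at 40 µM overlapped the controls. The log2 fold change at 80 µM was 0.63 (SE 0.15, 95% interval 0.31 to 0.96, edgeR adjusted p = 0.0075), and at 40 µM it was 0.32 (SE 0.15, adjusted p = 0.25). The call rests on 613 to 785 counts per control library and 1012 to 1302 per library at 80 µM, and it held in 16 of 16 alternative analyses, with log2 fold changes from 0.56 to 0.73.

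RPL22L1 encodes a large-subunit paralogue of the RNA-binding protein RPL22. It lies on chromosome 3 from 170864875 to 170870483 on the minus strand. RPL22L1 stood at 42.3, 28.9 and 25.4 CPM in control, 26.9, 37.6 and 27.6 at 40 µM, with 20.2, 21.3 and 19.8 at 80 µM. The libraries at 80 µM lay below all others and close together, and control replicate 1 was the highest of the 9. The log2 fold change at 80 µM was -0.66 (SE 0.20, 95% interval -1.10 to -0.22, edgeR adjusted p = 0.027). Without control replicate 1 the log2 fold change was -0.40 (adjusted p = 0.12), and without any 1 of the 80 µM libraries the adjusted p was 0.065 to 0.081.

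RPL26L1 encodes a near-identical paralogue of RPL26. It lies on chromosome 5 from 172958729 to 172969771 on the plus strand. RPL26L1 stood at 32.0, 30.9 and 32.2 CPM in control, 26.0, 33.9 and 25.7 at 40 µM, with 23.1, 22.5 and 24.7 at 80 µM. Every library at 80 µM lay below every other library. The log2 fold change at 80 µM was -0.44 (SE 0.13, 95% interval -0.73 to -0.15, edgeR adjusted p = 0.026). The call was lost without control replicate 1 (adjusted p = 0.075) or 2 (0.051), without any 1 of the 80 µM libraries (0.055 to 0.097) and without a filter on low counts (0.051).

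**Figure D2:**
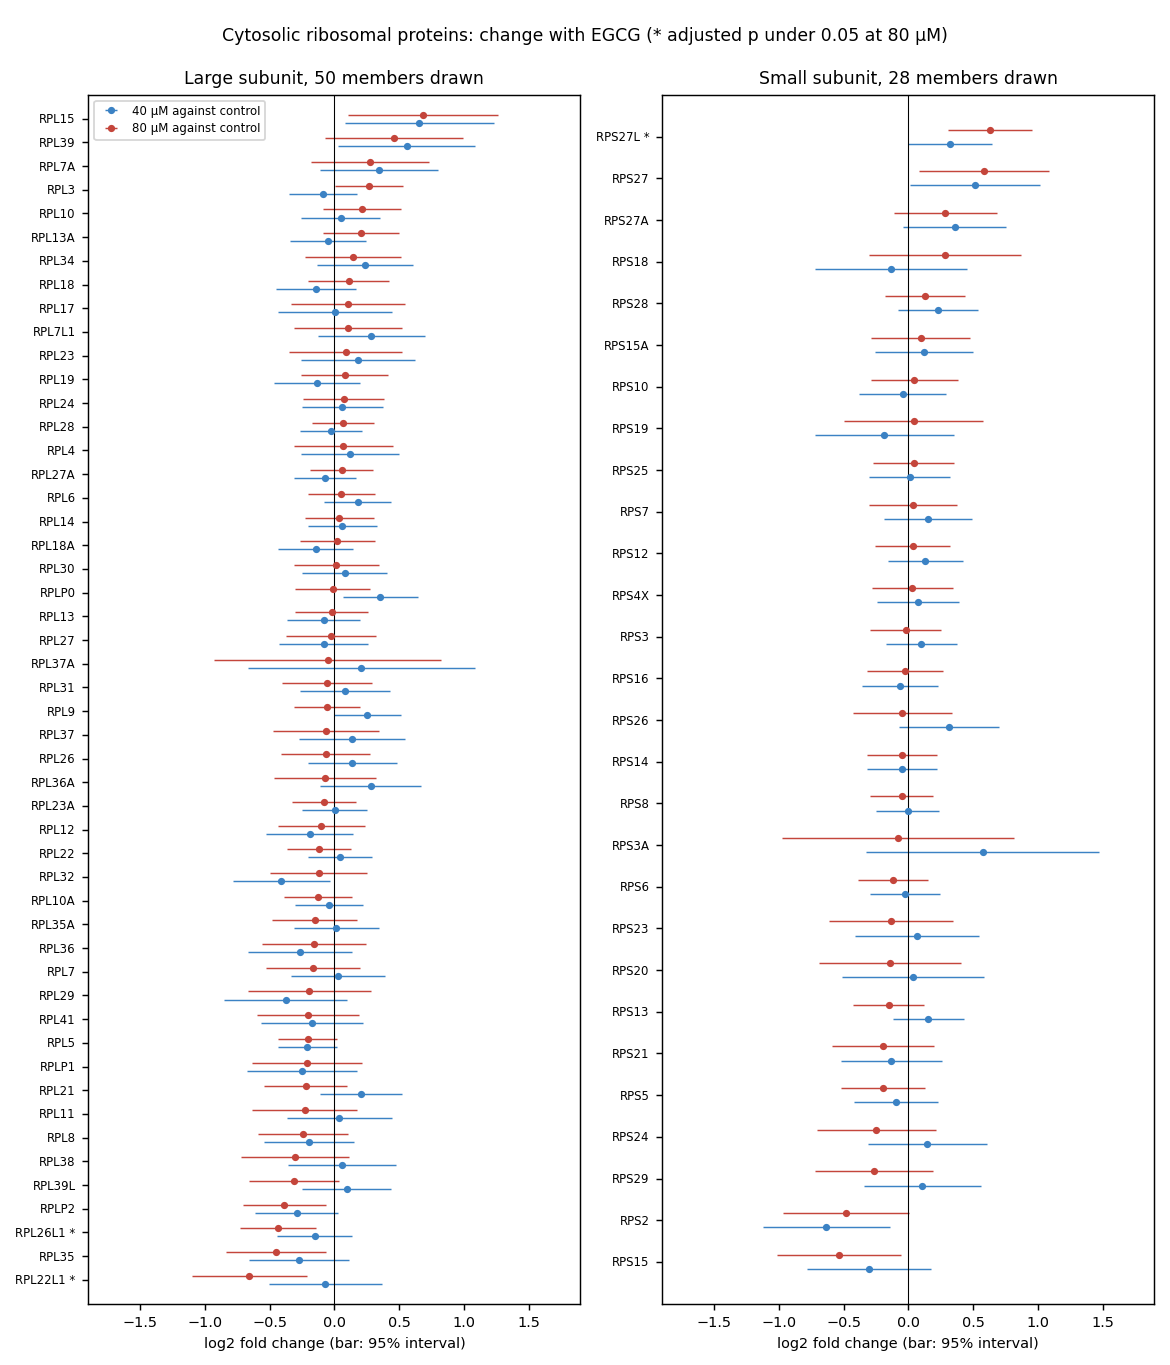
Log2 fold change of the tested members at 40 µM (blue) and 80 µM (red) against the same 3 control libraries, with 95% intervals, ordered within each subunit by the value at 80 µM. The 50 large and 28 small subunit members drawn scatter about 0, and the 3 members marked with an asterisk, RPS27L, RPL22L1 and RPL26L1, have an adjusted p under 0.05 at 80 µM.

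The 77 other tested members were not called at 80 µM. The 95% interval of the fold change lay within a 2-fold rise or fall for 75 of the 80 members. The median half-width of the intervals was 0.345 on the log2 scale, so the lack of a call does not exclude changes smaller than 2-fold. The intervals are for each member's own row, without its pseudogene rows. No member changed by 2-fold or more in its estimate, against 14.3% of all genes tested at 80 µM and 4.19% at 40 µM. The median log2 fold change at 80 µM was -0.06 for the large and -0.04 for the small subunit, beside 0.00 over all genes. At 40 µM these medians were 0.02, 0.07 and 0.01. Both doses were set against the same control libraries.

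RPL15, a large-subunit protein, had the largest positive value at 80 µM with a log2 fold change of 0.69 (SE 0.26, edgeR adjusted p = 0.065). RPL15 stood at 349, 302 and 680 CPM in control, 670, 823 and 605 at 40 µM, with 790, 646 and 705 at 80 µM. Control replicate 3 lay among the treated libraries and the other controls below them all. Without that library the log2 fold change was 1.11 (edgeR adjusted p = 0.00094), and leaving out each other library in turn gave 0.48 to 0.77 (none passed). RPL15 passed with DESeq2 (adjusted p = 0.024), and with pseudogene copies added it was at 0.45 (edgeR adjusted p = 0.10).

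RPS15, RPS2 and RPL35 had the next negative values after RPL22L1. RPS15 stood at 425, 340 and 493 CPM in control, 469, 273 and 277 at 40 µM, with 330.4, 252 and 287 at 80 µM. Its log2 fold change at 80 µM was -0.53 (SE 0.22, edgeR adjusted p = 0.079). RPL35 was at 744, 653 and 818 CPM in control and 559, 488 and 573 at 80 µM, with a log2 fold change of -0.45 (SE 0.17, adjusted p = 0.068). For RPS15 and RPL35 every 80 µM library lay below every control. Fitted on only the control and 80 µM libraries, both passed, with adjusted p = 0.028 for RPS15 and 0.017 for RPL35.

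RPS2, near the entry of the messenger channel, stood at 446, 403 and 563 CPM in control, 295, 298 and 317 at 40 µM, with 283, 248 and 480.4 at 80 µM. All 40 µM libraries lay below the controls, while replicate 3 at 80 µM lay among the controls. The log2 fold change was -0.63 at 40 µM (SE 0.22, edgeR adjusted p = 0.16) and -0.48 at 80 µM (SE 0.22, adjusted p = 0.11). Without replicate 3 at 80 µM the latter was -0.81 (adjusted p = 0.0045), without replicate 2 it was -0.29 (adjusted p = 0.36), and without control replicate 3 it was -0.36 (adjusted p = 0.29).

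The stalk proteins RPLP0, RPLP1 and RPLP2 recruit translation factors to the large subunit. RPLP0, which anchors the stalk, stood at 892, 906 and 942 CPM in control, 966, 1142 and 1395 at 40 µM, with 895, 842 and 976 at 80 µM. It was above all controls at 40 µM (log2 fold change 0.35, SE 0.13, edgeR adjusted p = 0.17) and among them at 80 µM (-0.01, adjusted p = 0.94). RPLP2 stood at 897, 829 and 1040 CPM in control and 790, 589 and 739 at 80 µM, below every control (-0.39, SE 0.14, adjusted p = 0.061). RPLP1, its partner in the stalk, had a log2 fold change of -0.21 (SE 0.19, adjusted p = 0.43) with overlapping libraries.

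RPL5, RPL11 and RPL23 are the members best known to bind the ubiquitin ligase MDM2 when they are not in a ribosome. RPL5 stood at 379, 358 and 395 CPM in control, 328, 355 and 296 at 40 µM, with 355, 302 and 324 at 80 µM. Both doses lay below the controls by a small amount (log2 fold change -0.21 at each, SE 0.10, edgeR adjusted p = 0.28 at 40 µM and 0.15 at 80 µM). RPL11 (-0.23, SE 0.18) and RPL23 (0.09, SE 0.20) did not pass at 80 µM, with adjusted p = 0.36 and 0.77.

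RPS6, the substrate of the S6 kinases, stood at 711, 652 and 618 CPM in control and 612, 568 and 642 at 80 µM (log2 fold change -0.12, SE 0.12). RPS14 and RPS19, whose loss is known from 5q- syndrome and Diamond-Blackfan anaemia, had -0.05 (SE 0.12) and 0.04 (SE 0.24). RPS3, at the messenger entry site, had -0.02 (SE 0.12) and RPL10, which joins the large subunit late, 0.21 (SE 0.14). None of these 5 was called, with edgeR adjusted p from 0.26 for RPL10 to 0.91 for RPS3 and RPS19.

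Between the 2 treated doses, no member was called by edgeR, while 10.9% of all genes were called higher at 80 µM and 12.1% lower. At an unadjusted p under 0.05, 1 member was higher and 6 lower, and DESeq2 called RPL3 higher and RPL22L1 lower. RPL3, which reaches towards the peptidyl transferase centre, stood at 1308, 1281 and 1503 CPM at 40 µM and 1563, 1948 and 1699 at 80 µM (log2 fold change 0.35, SE 0.12, edgeR adjusted p = 0.058). RPS3A had the most negative value (-0.66, SE 0.41, adjusted p = 0.28, and -0.15 without 40 µM replicate 2), then RPL22L1 (-0.59, SE 0.20, adjusted p = 0.057) and RPL21 (-0.43, SE 0.14, adjusted p = 0.057). Libraries did not overlap for 3 members on the higher side (RPL18, RPL3 and RPS19), or 3.75% against 20.1% of all genes. On the lower side they did not overlap for 6 (RPL21, RPL22L1, RPL26L1, RPL39L, RPL9 and RPS13), or 7.5% against 21.5%.

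For many members, pseudogenes or other genes share the sequence, and pseudogene rows held counts beside the member's own row. Whether the sharing set how counts were divided between rows was not tested. For others, such as RPL38 and RPLP2, pseudogene rows held 0.02% of the combined counts. Each member's longest coding sequence was split into 50-base words, and a word was called unique when no other gene in GENCODE 29 held it. Of the called paralogues, RPS27L was unique in 100% of its words, RPL22L1 in 95.3% and RPL26L1 in 50.3%. RPL39L, which was not called, was unique in 100%. The main genes were less so. RPL26 was unique in 17.9%, RPL22 in 3.28%, and RPS27 and RPL39 in 0% of words. In all, 38 of 83 members were unique in under 50% of words and 8 in none.

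Beside the members, the pseudogene rows held 2.05 ± 0.17% of counts without EGCG, 2.17 ± 0.29% with 40 µM and 2.15 ± 0.13% with 80 µM (SD, n = 3 libraries). For 22 members these rows summed to more than the member itself. The following examples were chosen after their values were seen. RPS28P7 was at a mean of 1017 CPM over the 9 libraries and RPS28 at 78.8. RPL13AP5 was at 1149 CPM and RPL13A at 596. RPL7AP6 was at 633 CPM and RPL7A at 31.7. The gene with the lowest count among the widely expressed members, RPS9, had 6, 0 and 3 counts in control, 3, 0 and 9 at 40 µM, with 3, 2 and 2 at 80 µM. With its pseudogene rows added it stood at 372, 329 and 473 CPM in control and 362, 336 and 389 at 80 µM. A low value on the rows of RPS9, RPS25, RPL9, RPL21 or RPL7A was therefore not taken as a measure of that messenger's level. These members were unique in 67%, 33.4%, 29.3%, 0% and 26% of their words, in that order. Why the RPS9 row held so few counts was not tested.

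**Figure D3:**
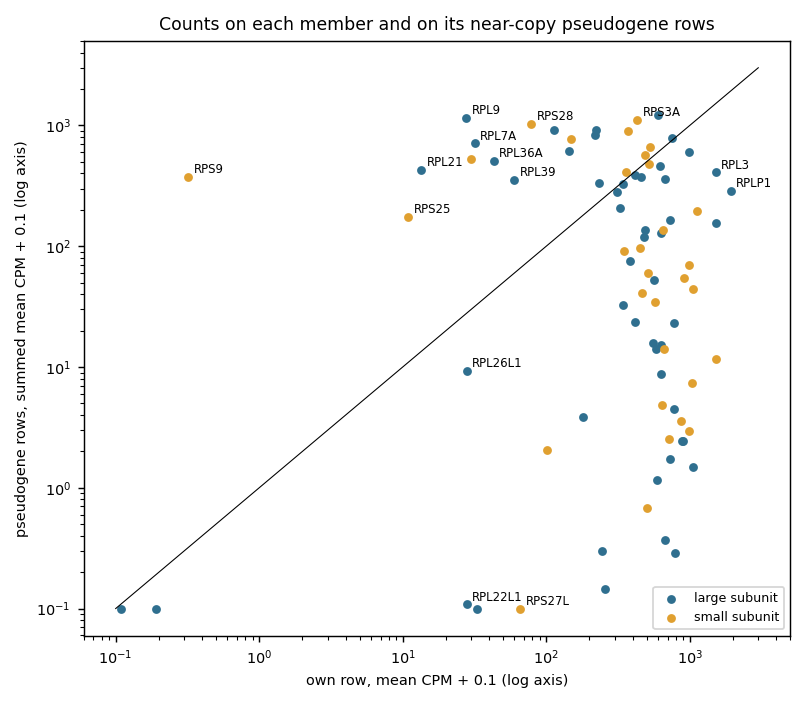
Mean CPM over 9 libraries on each member's own row (horizontal, log axis) and summed over its near-copy pseudogene rows (vertical, log axis), with 0.1 CPM added so that 0 can be drawn, and the line of equality. RPS9, RPS25, RPL21, RPL9, RPL7A, RPS28 and RPL39 lie far above the line. RPS27L and RPL22L1 lie far below the line, at the foot of the plot, with almost no counts on copies.

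Adding the pseudogene rows left the same 3 members called at 80 µM, RPS27L, RPL22L1 and RPL26L1, and changed other values. RPS27 stood at 112, 103 and 126 CPM in control, 124, 239 and 125 at 40 µM, with 186, 159 and 165 at 80 µM, so its own row at 80 µM lay above every control (log2 fold change 0.58, SE 0.23, edgeR adjusted p = 0.070). That row passed with DESeq2 (adjusted p = 0.036) and in edgeR without 40 µM replicate 2 (adjusted p = 0.0029). With its copies, RPS27 stood at 819, 760 and 988 CPM in control and 978, 825 and 939 at 80 µM, with overlapping groups and a log2 fold change of 0.09 (adjusted p = 0.72). RPL39 went from 0.46 (adjusted p = 0.16) on its own row to 0.06 (0.82) with its copies. RPS2 went from -0.48 to -0.15. RPS3A and RPL37A had a wide spread between replicates, with a standard deviation within groups of 0.66 and 0.65 on the log2 scale. Adding copies brought RPS3A to 0.28, but left RPL37A at 0.63.

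The balance within each paralogue pair was compared as a log2 ratio of counts, in which library size cancels. Of 8 pairs, 6 could be tested with an exact permutation test over the 9 libraries across the 3 doses, adjusted over the 6. RPL3L with RPL3 and RPL10L with RPL10 were too low. None of the 6 ratios passed, although at 80 µM 2 of them lay apart from every control. The smallest p the design allows is 0.00357.

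The balance of RPL39L, a paralogue known from testis, to RPL39 had the widest gap on the rows as deposited. Its log2 ratio was -0.59, -0.48 and -0.29 in control, -0.40, -1.22 and -0.92 at 40 µM, with -1.37, -1.20 and -1.05 at 80 µM. The 80 µM libraries lay below all controls, a difference of -0.76 (exact p = 0.068 over the 3 doses, adjusted p = 0.20). In CPM, RPL39L was at 31.7, 31.4 and 39.2 in control and 29.9, 23.9 and 28.6 at 80 µM, and RPL39 at 47.6, 43.9 and 47.8 in control and 77.5, 55.0 and 59.3 at 80 µM. RPL39 is a row that shares all its words with other genes, and with pseudogene copies added the difference was -0.37 (adjusted p = 0.096).

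The log2 ratio of RPL26L1 to RPL26 was -3.84, -3.72 and -4.08 in control and -4.40, -4.18 and -4.18 at 80 µM, a difference of -0.37 (exact p = 0.057, adjusted p = 0.20). RPL26 itself stood at 460, 409 and 542 CPM in control and 490, 408 and 450 at 80 µM. The ratio of RPL22L1 to RPL22 differed by -0.50 with overlapping libraries (exact p = 0.16, adjusted p = 0.32), and RPL22 stood at 338, 317 and 343 CPM in control and 341, 267 and 311 at 80 µM. RPL7L1 to RPL7 (0.29, exact p = 0.37) and RPL36AL to RPL36A (-0.03, exact p = 0.50) overlapped as well. With pseudogene copies added, the first was at -0.01 and the second at -0.10, and those of RPL26L1 and RPL22L1 were at -0.39 and -0.50.

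The ratio of RPS27L to RPS27 passed the test only with pseudogenes added. On the rows as deposited it differed by 0.06 between 80 µM and control (exact p = 0.71). With the counts of the RPS27 pseudogenes added to RPS27, the difference was 0.54. The exact permutation test over the 3 doses gave an adjusted p of 0.021, the smallest possible when only 1 of 6 pairs reaches the lowest p.

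**Figure D4:**
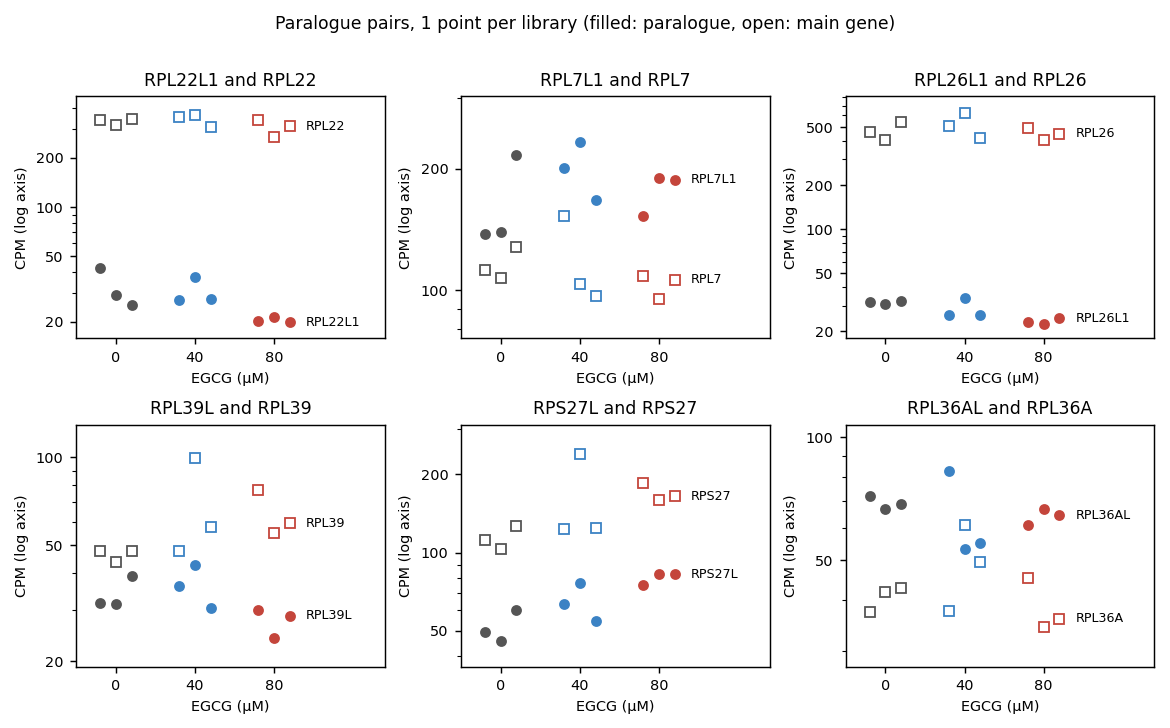
CPM (log axis) of the 6 tested paralogue pairs by EGCG dose, 1 point per library, with the paralogue filled and the main gene open. RPL22L1, RPL26L1 and RPL39L are lower in all 80 µM libraries than in any control, RPS27L is higher, and RPS27 and RPL39 are higher with 40 µM replicate 2 highest of all.

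The ribosomal proteins outside the symbol rule gave 1 rise and 0 falls among 5 at 80 µM, where 17.4% of all genes rose and 17.5% fell. RACK1, a scaffold on the small subunit, rose from 470.3, 496 and 602 CPM in control to 743, 669 and 697 at 80 µM (log2 fold change 0.43, SE 0.12, edgeR adjusted p = 0.018). RPSA (0.01) and FAU (-0.21), whose product is a ribosomal protein fused to a ubiquitin-like protein, did not pass.

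Among 23 other genes whose messengers are known for a TOP tract, mostly translation factors, 5 rose at 80 µM and 0 fell, with a median log2 fold change of 0.12 beside 0.00 over all genes. A rise in 5 of 23 is close to the 17.4% of all genes called higher. The elongation factor EEF2 rose from 5600, 5611 and 7479 CPM to 8649, 8569 and 9045 (0.49, SE 0.13, edgeR adjusted p = 0.013). EEF1A1, which brings aminoacyl-tRNA to the ribosome, rose by 0.35 (SE 0.11, adjusted p = 0.036) and the initiation factor EIF2A by 0.44 (SE 0.12, adjusted p = 0.019). VIM, the intermediate filament protein vimentin, rose at both doses, by 0.87 at 40 µM (adjusted p = 0.011) and 1.22 at 80 µM (adjusted p = 0.00013). Of 13 regulators of TOP messengers and mTORC1, 1 rose and 2 fell, beside 17.4% and 17.5% of all genes. EIF4EBP1, an inhibitor of cap-dependent initiation, rose by 0.66 (SE 0.18, adjusted p = 0.017). CNBP and SSB, which bind TOP messengers, fell by 0.41 and 0.48 on the log2 scale (adjusted p = 0.0060 and 0.018).

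Genes that carry and assemble the ribosomal proteins had several falls at 80 µM. Of 18 genes for import and dedicated chaperones of ribosomal proteins, 9 fell and 0 rose, with a median log2 fold change of -0.41, against 17.5% of all genes that fell and 17.4% that rose. PDCD2L, a companion of RPS2, fell from 41.4, 40.1 and 48.4 CPM to 20.4, 19.6 and 16.7 (-1.19, SE 0.14, edgeR adjusted p = 0.00013). RRS1, which helps to place the 5S particle with RPL5 and RPL11, fell by 1.18 on the log2 scale (SE 0.18, adjusted p = 0.00066), HEATR3, a carrier of RPL5, by 0.80 (adjusted p = 0.00032) and BCCIP, a partner of RPL23, by 0.71 (adjusted p = 0.0011).

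Of 16 genes for RNA polymerase I and its factors, which make and handle the ribosomal RNA, 9 fell and 1 rose, with a median of -0.61, beside the same 17.5% and 17.4%. The polymerase subunit POLR1G fell from 67.4, 72.6 and 76.2 CPM to 20.9, 23.9 and 31.6 (-1.50, SE 0.17, edgeR adjusted p = 0.00011). UBTF, which activates ribosomal DNA, fell by 0.80 on the log2 scale (adjusted p = 0.00027), the nucleolar protein NCL by 0.75 (0.00038) and the catalytic subunit POLR1A by 0.76 (0.00060). At 40 µM, 0 of the 16 and 0 of the 18 were called by edgeR.

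Mitochondrial ribosomal proteins, which build the separate ribosome of mitochondria, gave 30 falls and 0 rises among 77 tested at 80 µM, with a median log2 fold change of -0.39, beside 17.5% of all genes lower and 17.4% higher. MRPL12 fell from 224, 214 and 287 CPM in control to 98.2, 93.0 and 105 (-1.29, SE 0.16, edgeR adjusted p = 0.00021). MRPL16 (-1.02), MRPL14 (-1.16) and MRPL4 (-1.01) fell with adjusted p of 0.00028 or lower. MRPL4 was the 1 gene of this list called at 40 µM (-0.57, adjusted p = 0.021). These lists were compared by their counts and medians only, and the difference between them was not tested.

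In the checkpoint that joins the 5S particle to MDM2, MDM2 and CDKN1A rose at each dose. MDM2 stood at 349.8, 354 and 275 CPM in control, 450.0, 532 and 549.9 at 40 µM, with 898, 974 and 944 at 80 µM (log2 fold change 1.52 at 80 µM, SE 0.12, edgeR adjusted p = 1.7e-05). CDKN1A, the cell cycle inhibitor p21, stood at 29.96, 31.1 and 31.5 CPM in control, 112, 102 and 86.9 at 40 µM, with 354, 327 and 117 at 80 µM (3.11, SE 0.34, adjusted p = 0.00011). Of the 10 genes in this list, 3 fell at 80 µM (RRS1, SRSF1 and RPF2) and 2 rose, beside 17.5% and 17.4% of all genes.

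**Figure D5:**
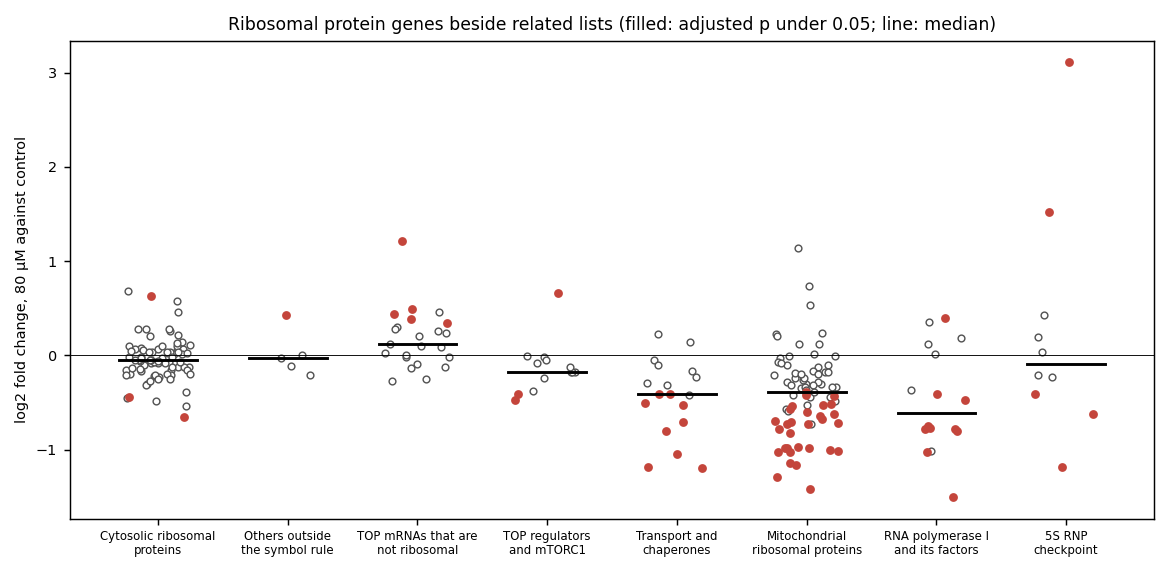
Log2 fold change at 80 µM against control for the 80 tested cytosolic ribosomal proteins and 7 related lists, 1 point per gene, filled where the edgeR adjusted p is under 0.05, with a line at each median. The cytosolic ribosomal proteins lie close to 0, and the medians for chaperones (-0.41), mitochondrial ribosomal proteins (-0.39) and RNA polymerase I (-0.61) lie below it.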

How the data were processed

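RNA from 9 libraries of MM.1S cells was sequenced, 3 per EGCG dose. The authors deposited 1 table with whole-number counts per gene and an FPKM per gene, per the file headers. HISAT2, SAMtools 1.3.1, CASAVA 1.8, edgeR and the GRCh38 build are credited in the submitters' processing notes. The sources used here do not say how reads were counted, reads with several matches and strand included, so antisense or overlapping genes cannot be told apart. Gene symbols came from GENCODE 29 and the supplied name table.

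The deposited counts were filtered with filterByExpr by group (15982 genes kept), scaled by TMM and tested in edgeR 4.0.16 (R 4.3.3) by quasi-likelihood. All 9 libraries entered 1 fit with 6 residual degrees of freedom, and p was adjusted over all genes tested. FPKM values entered no test of genes. Pseudogene rows were those sharing 50-base words with a member or named after it. Paralogue ratios used counts with 0.5 added. Library totals set the precision of low rows. Simulated counts gave every gene the same spread, the common value of the real libraries. Of genes changed by 1 on the log2 scale at 80 µM against control, 71% were recovered (15507 genes tested). Of those changed by 0.5, 7% were. Far fewer genes were changed there than were called in the real libraries, so these rates may not carry over to the members.

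The members, gene lists and tests were chosen with earlier results of these data known. Genes named are called members, the 3 largest changes each way, the 5 highest and lowest levels, paralogue pairs, members fixed for their role, and up to 4 called genes per list and comparison. Alternatives were another scaling, no filter, DESeq2 1.42.0, a replicate block, only the 2 doses compared, each library left out, and pseudogene counts added. Adding all near-copies, beyond pseudogenes named after a member, was chosen after seeing the data. Values of some genes are not reported here, and the plot of fold changes leaves their rows out.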

Additional observations from a re-analysis of the deposited data

How the results depend on the processing

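No called result changed direction, and the subunit medians moved by less than the spread between replicates in every alternative run. The 9 same-numbered pairs of libraries in different doses correlated at -0.14 to 0.05, so the replicate numbers were not taken to pair them. With a replicate block, 5 members were called lower at 80 µM against control in place of 2 (RPLP2, RPS15 and RPS2 were added), and 1 was called higher as before. Using only the 2 doses compared gave 4 higher and 4 lower at 80 µM against control, and 1 lower at 80 µM against 40 µM. DESeq2 gave 3 higher at 80 µM against control, and 1 higher and 1 lower at 80 µM against 40 µM. No filter on low counts left 1 lower at 80 µM against control, and RLE scaling gave 1 higher at 80 µM against 40 µM. Leaving out 1 library at a time gave 0 to 1 members higher at 40 µM against control (RPL15, without control replicate 3), 1 to 3 higher and 0 to 5 lower at 80 µM against control, and 0 to 1 higher and 0 to 2 lower at 80 µM against 40 µM. The 0 lower came without control replicate 1 or 80 µM replicate 1 or 2, and the 5 without 40 µM replicate 1. Adding pseudogene counts, named or all near-copies, brought 1 paralogue ratio (RPS27L to RPS27) past the threshold in place of 0. Fits with fewer libraries also had smaller groups, and the cause of these differences was not tested. At 80 µM against control, some changes near 0.5 on the log2 scale were called (EEF2, 0.49) and others were not (RPS15, -0.53). Counts on rows that share their sequence with pseudogenes depend on how the authors' counting assigned them.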
